A study of Mus musculus with 50 samples.

Results

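The 39 genes described here encode the machinery of S phase, from the licensing of origins to the packaging of new DNA, together with 3 regulators of S-phase entry. They were picked by symbol for what they are known to do, and all 39 had a row among the 11879 gene rows of a table of 50 single cells. The cells were hemogenic endothelial cells induced in culture (iHECs) from C57BL/6 mouse embryonic stem cells that carried a doxycycline-inducible Runx1 cassette in the Rosa26 locus (iRunx1). They were sorted as single CD31+CD41lowCD45-c-kit+CD201high cells after doxycycline induction, and the cDNA of each cell was amplified before its library was made. There was 1 group, every cell carried the same cassette, and values per gene do not separate the cassette from the endogenous Runx1. No animal or culture was named, so the 50 cells are 1 sample, nothing was tested between conditions, and every spread below is a spread between cells. Levels are in TPM, a level per transcript length scaled to a common total in each cell, which keeps no sequencing depth.

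Genes of the markers that the cells were sorted for were above TPM 1 in most cells. Endothelial genes Pecam1 (CD31), Cdh5, Kdr, Esam and Eng were above TPM 1 in 50 of 50 cells and Tek in 49, Procr (CD201) was above it in 50, Kit in 47 and Itga2b (CD41) in 40. Hemogenic genes outside the sort were less broad, with Runx1 in 43 cells, Gata2 in 41, Tal1 in 29 and Gfi1 in 17. Ptprc, which encodes CD45, was listed at 0 in all cells. Of the other blood genes, Laptm5 was above TPM 1 in 48 cells, Coro1a in 21 and Cd52 in 3. Red cell globins Hba-a1 and Hba-a2 passed TPM 1 in 1 and 4 cells, and of the mesenchymal genes Pdgfra did so in 2 cells while Col3a1 and Pdgfrb did so in 0. Pluripotency markers were not analysed here. Cells differed in the number of genes above TPM 1, which ran from 2400 to 8615 with a median of 6224, and cell 4-6 (cells are called by their title numbers) had the fewest.

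Before a cell copies its DNA, the origin recognition complex, Cdc6 and Cdt1 load rings of the 6 MCM proteins onto origins, and Cdc45 and the GINS complex then turn each ring into a moving helicase. Primase and polymerase alpha start the new strands, the clamp loader RFC places the sliding clamp PCNA for polymerases delta and epsilon, RPA covers single strands, Fen1 and Lig1 join the fragments, and CAF-1 lays histones on the copied DNA. Many of these genes are targets of E2F transcription factors, which cyclin E and Cdk2 help to release at the G1/S border.

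Promoter windows of members are shown first, because the genes are known as E2F targets and their levels are compared in the text that follows. RefSeq windows of 300 bases, 250 before and 50 after a start site on GRCm38.p6, were found for 32 of the 39 members, 37 windows in all. An E2F motif, spelled TTTCCCGC, TTTGGCGC, TTTGCCGC or TTTCGCGC on either strand, with overlaps allowed, lay in 11 of 37 member windows (29.7%), in 2.27% of all 32851 mouse windows and in 3.91% of the 11285 windows of genes with a row in the table. The 6 windows printed are all among the 11 with the motif. Of these 6, 4 belong to MCM genes and the others to Pclaf, which binds PCNA, and Cdc6, a licensing factor. Capitals mark the motif letters, and where motifs overlap the capitals run together.

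Mcm3 (chr1:20820263-20820562, minus strand): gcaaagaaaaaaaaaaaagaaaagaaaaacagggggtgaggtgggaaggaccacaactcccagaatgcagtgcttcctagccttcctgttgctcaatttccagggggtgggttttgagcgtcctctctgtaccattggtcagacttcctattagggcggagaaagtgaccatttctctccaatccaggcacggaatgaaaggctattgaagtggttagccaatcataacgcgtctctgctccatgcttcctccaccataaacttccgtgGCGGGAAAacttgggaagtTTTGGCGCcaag
Mcm5 (chr8:75109259-75109558, plus strand): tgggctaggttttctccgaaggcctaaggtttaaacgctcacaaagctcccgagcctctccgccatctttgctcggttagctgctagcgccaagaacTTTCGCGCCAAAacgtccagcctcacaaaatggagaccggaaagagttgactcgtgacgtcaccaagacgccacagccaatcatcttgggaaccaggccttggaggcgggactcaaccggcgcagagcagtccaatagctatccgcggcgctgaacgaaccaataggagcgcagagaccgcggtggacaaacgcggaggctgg
Mcm6 (chr1:128359656-128359955, minus strand): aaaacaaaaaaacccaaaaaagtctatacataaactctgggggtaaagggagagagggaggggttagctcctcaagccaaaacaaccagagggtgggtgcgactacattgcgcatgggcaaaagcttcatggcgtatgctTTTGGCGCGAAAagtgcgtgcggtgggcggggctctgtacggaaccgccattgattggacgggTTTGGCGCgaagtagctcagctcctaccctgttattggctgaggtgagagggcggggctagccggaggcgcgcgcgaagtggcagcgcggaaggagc
Mcm7 (chr5:138171834-138172133, minus strand): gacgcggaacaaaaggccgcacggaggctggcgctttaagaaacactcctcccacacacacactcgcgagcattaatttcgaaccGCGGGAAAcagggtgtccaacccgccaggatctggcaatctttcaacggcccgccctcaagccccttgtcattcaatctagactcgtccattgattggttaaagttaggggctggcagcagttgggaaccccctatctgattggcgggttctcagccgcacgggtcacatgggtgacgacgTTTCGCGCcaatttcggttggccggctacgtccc
Pclaf (chr9:65890073-65890372, plus strand): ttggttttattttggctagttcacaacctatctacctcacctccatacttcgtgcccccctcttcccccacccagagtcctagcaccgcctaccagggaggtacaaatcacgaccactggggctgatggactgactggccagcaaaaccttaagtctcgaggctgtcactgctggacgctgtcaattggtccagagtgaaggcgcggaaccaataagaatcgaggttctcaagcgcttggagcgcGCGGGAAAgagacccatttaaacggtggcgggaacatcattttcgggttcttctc
Cdc6 (chr11:98907901-98908200, plus strand): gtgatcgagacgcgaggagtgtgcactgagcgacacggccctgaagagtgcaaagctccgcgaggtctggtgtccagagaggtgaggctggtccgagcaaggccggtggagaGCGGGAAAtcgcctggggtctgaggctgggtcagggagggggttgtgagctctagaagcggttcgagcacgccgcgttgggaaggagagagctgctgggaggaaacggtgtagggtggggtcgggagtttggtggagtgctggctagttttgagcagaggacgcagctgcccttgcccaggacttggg

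The Mcm6 window held 3 matches, and the printed windows of Mcm3, Mcm5 and Mcm7 held 2 each. The other Mcm7 window and the Mcm2 window, which are not printed, held 0. A match is a description of letters and not of a bound site. The motif was found in 4 of 17 windows (23.5%) of members that went most closely with the others by the measure given later in the text, and in 7 of 20 windows (35%) of the other members. The letters CCAAT, on either strand, were in 21 of 37 member windows (56.8%), in 37.4% of all windows and in 26 of 32 windows (81.3%) of a list of genes for G2 and mitosis, of which 1 held the E2F motif. Member windows had a median G and C content of 61.3%, against 52.7% for all windows and 60.7% for genes with a row.

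Each cell was scored by the number of members above TPM 1, a level that the study used to choose genes for its map of cells, and by the mean of log2(TPM + 1) over the 39 members, called the member score here. The median cell had 20 of 39 members above TPM 1, with a range of 8 to 38. No cell lacked the whole module, and no cell had all of it. The member score ran from 0.85 in cell 2-13 to 7.23 in cell 1-3, with a median of 2.89 and an SD of 1.43 over the 50 cells. The share of a cell's TPM held by members was 0.174% in the median cell, 0.0514% in the lowest (cell 2-11) and 0.966% in the highest (cell 1-3). Of the 1950 pairs of a member and a cell, 1078 were above TPM 1 (55.3%), against 51.9% over all rows and cells, 700 were listed at 0 and 172 lay in between. Since a value of 0 in a single cell can also be a molecule that was not captured, it is described only as listed at 0.

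**Figure D1:**
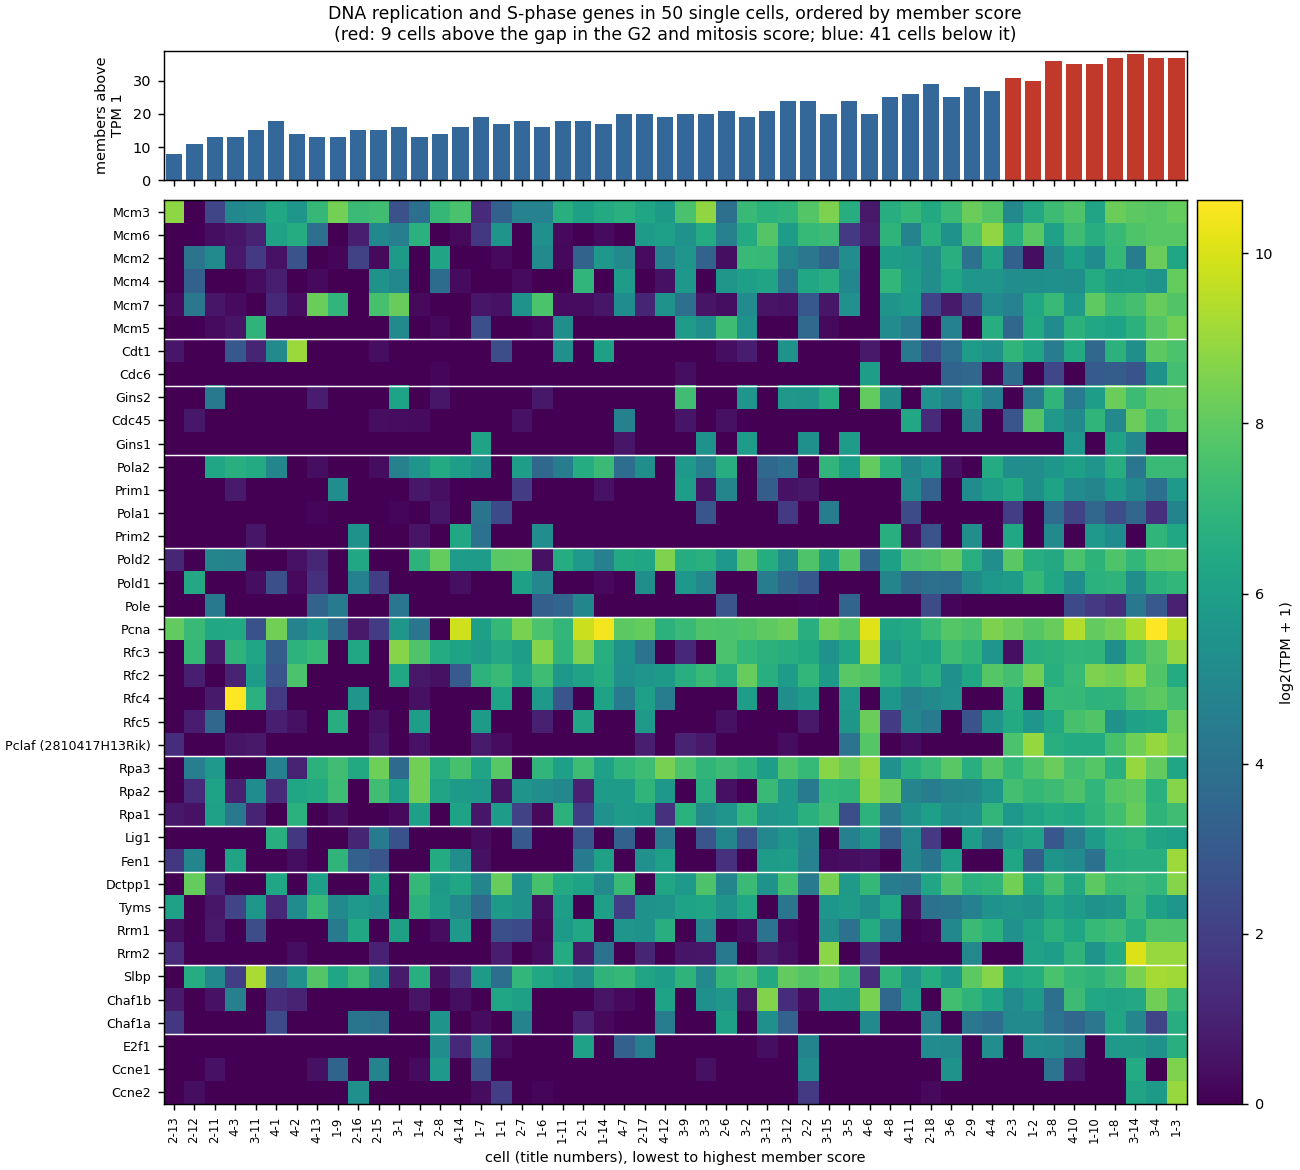
Level of each of the 39 members (rows, grouped by role) in each of the 50 cells (columns, from the lowest to the highest member score), with colour giving log2(TPM + 1) and bars giving the number of members above TPM 1. Bars in red are the 9 cells above the gap in the G2 and mitosis score, with 30 to 38 members, and bars in blue are the other 41, with 8 to 29.

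Breadth differed widely between members. The median member was above TPM 1 in 56% of cells, against a median of 52% over all 11879 rows, and 10 of the 39 members were above it in at least 40 cells (25.6%), a share near the 28.8% of all rows. Pcna, the sliding clamp, was in 48 of 50 cells (96%, exact 95% interval 86.3% to 99.5%) at a median of 209 TPM and a highest value of 1544 TPM in cell 3-4. Mcm3 was also in 48 cells, at a median of 104 TPM, and Slbp, which binds the stem loop of histone mRNAs, was in 47 cells at a median of 94.2 TPM. At the other end stood Ccne2 in 6 cells (12%, 4.53% to 24.3%), Gins1 in 8, Ccne1 in 9 and Cdc6 in 10. The median level was 0 TPM for 11 members. Intervals cover counting error over cells only, and the shares of neighbours in this order lie inside each other's intervals.

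Parts of the same complex were not equally broad. Among the 6 MCM helicase subunits, Mcm3 was in 48 cells, Mcm6 in 36, Mcm2 in 34, Mcm4 and Mcm7 in 29 each and Mcm5 in 22. Their median levels were 104 TPM for Mcm3, 43.6 TPM for Mcm6, 30.2 TPM for Mcm4, 16.8 TPM for Mcm2, 5.70 TPM for Mcm7 and 0.188 TPM for Mcm5. Counted per cell, 15 of the 50 cells had all 6 subunits above TPM 1, 34 had from 1 to 5, and 1 had 0. The single-strand binding complex RPA was broad in each of its 3 subunits, with Rpa3 in 46 cells at a median of 128 TPM, Rpa2 in 42 at 56.5 TPM and Rpa1 in 39 at 47.6 TPM. In the clamp loader, Rfc3 was in 43 cells and Rfc2 in 41, while Rfc4 was in 27 and Rfc5 in 22. Rfc4 reached 1576 TPM in cell 4-3, a cell with 13 members above TPM 1, and this was the highest value of any member in any cell.

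Origin licensing and helicase activation genes were among the rarer members. Cdt1, the MCM loader, was in 22 cells at a median of 0.441 TPM, and its highest value, 519 TPM, was in cell 4-2, where 14 members passed TPM 1. Cdc6, its partner in licensing, was in 10 cells. Of the helicase activators, Gins2 was in 21 cells, Cdc45 in 13 and Gins1 in 8, and the 3 had a median of 0 TPM. In the 8 cells with Gins1 above TPM 1, its median was 51.8 TPM.

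For polymerases alpha and delta, the accessory subunit was seen in more cells than the catalytic one. Pola2, the B subunit of polymerase alpha, was in 37 cells, while its catalytic subunit Pola1 was in 14 and the primase subunits Prim1 and Prim2 were in 18 and 13. Pold2, the second subunit of polymerase delta, was in 42 cells at a median of 85.8 TPM, against 28 cells and 5.80 TPM for the catalytic Pold1. Pole, the catalytic subunit of polymerase epsilon, was in 15 cells and never above 28.2 TPM. Of the remaining members, the flap nuclease Fen1 and the ligase Lig1, which join Okazaki fragments, were in 28 and 31 cells. Tyms and Dctpp1, which make dTMP and clear unwanted nucleotides, were in 42 cells each, the ribonucleotide reductase subunit Rrm1 was in 30 and its partner Rrm2 in 16. The CAF-1 subunits Chaf1b and Chaf1a were in 27 and 23 cells. E2f1 was in 17 cells, and 12 cells had either cyclin E gene above TPM 1, of which 3 had both.

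Score and genes per cell went together. Over the 50 cells the member score correlated with the number of other genes above TPM 1 at a Spearman rho of 0.73 (Pearson r = 0.57), and the number of members above TPM 1 did so at 0.79 (r = 0.69). Without the 2 cells farthest from the median number of genes these became 0.77 (r = 0.65) and 0.81 (r = 0.75). The points share the unknown depth of each library, so the correlation is a description of these libraries. Within the 4 values of the first title number, whose meaning is not given, rho of the score with genes per cell was 0.81 (n = 11), 0.88 (n = 14), 0.49 (n = 13) and 0.57 (n = 12). Cell 4-6 stood apart from this relation, because it had the fewest genes, 2400, with 20 members above TPM 1 and a score of 3.52. It also held the highest values of Rfc3 (702 TPM), Rpa2 (426 TPM), Rfc5 (305 TPM) and Pola2 (267 TPM) of all cells, while its Mcm3 was 0.66 TPM. Without cell 4-6, rho of the score with genes per cell was 0.78.

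The cells fell into separate sets by a list of 36 genes of G2 and mitosis that holds no member. The mean log2(TPM + 1) over this list was at most 2.09 in 41 cells and at least 4.03 in 9 cells, and this gap of 1.94 was the widest between neighbouring cells, the next widest being 1.29. The split at the gap was chosen after the values were seen, and it used no member. The 9 cells above the gap had 26 to 36 of the 36 listed genes above TPM 1, and the 41 below it had 5 to 18. Of the 9 cells, 4 had the first title number 1, 1 had 2, 3 had 3 and 1 had 4.

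The 9 cells above the gap were also the 9 with the highest member scores. Their scores ran from 4.63 (cell 2-3) to 7.23 (cell 1-3) with a mean of 5.80 ± 0.85 (SD, 9 cells), and those of the other 41 ran from 0.85 (cell 2-13) to 4.34 (cell 4-4) with a mean of 2.69 ± 0.77 (SD, 41 cells). The number of members above TPM 1 did not overlap either, at 30 to 38 in the 9 cells and 8 to 29 in the others. Genes per cell overlapped but were higher in the 9 cells, with a range of 6390 to 8615 and a mean of 7273, against 2400 to 8164 and a mean of 5918, and their part in the difference was not tested. Within the 9 cells the score did not go up with genes per cell (rho = -0.43, r = -0.32), while within the 41 it did (rho = 0.65, r = 0.53, and 0.72 and 0.73 without the 2 cells farthest from their median). Cells of high gene number can be doublets, for which these data were not tested.

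**Figure D2:**
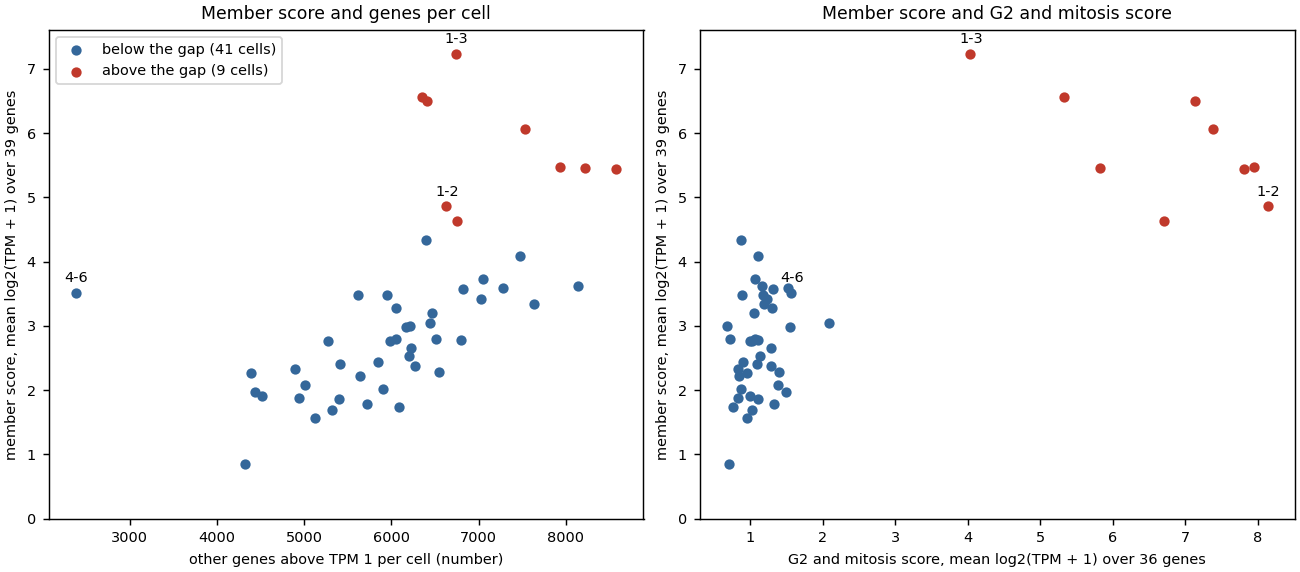
Member score, the mean log2(TPM + 1) over 39 genes, of each of the 50 cells against the number of other genes above TPM 1 (left) and against the mean log2(TPM + 1) over 36 genes of G2 and mitosis (right). The 9 cells above the gap (red) have member scores of 4.63 to 7.23 and the 41 below it (blue) 0.85 to 4.34, and cell 4-6 lies far to the left with 2380 other genes.

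The 41 cells below the gap were not empty of the module. Their median was 18 members above TPM 1. In these cells alone 16 of the 39 members (41%) had a median above TPM 1, a smaller share than the 49.5% of all 11879 rows. The highest of them, cell 4-4, had 27 members above TPM 1 with the highest Mcm6 value of all cells, 465 TPM, and 7 of the 36 genes of G2 and mitosis. Cells 2-9 and 2-18 had 28 and 29 members above TPM 1 with 10 such genes each. All 6 MCM subunits were above TPM 1 in 7 of the 41 cells, and in 8 of the 9.

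Member by member, 37 of the 39 were at least 1 unit of log2(TPM + 1) higher on average in the 9 cells (94.9%), against 25.5% of the 10114 rows above TPM 1 in at least 10% of cells. Of the 35 members that passed TPM 1 in at least 10% of the 41 cells alone, a filter in which the 9 cells have no part, 33 were as much higher, against 24.9% of 9683 such rows. None of the 39 was as much lower, against 2.23% of the 10114 rows. The median difference was 3.05 over the members and 0.44 over the 10114 rows. All 39 members passed TPM 1 in a larger share of the 9 cells than of the others, as 75.7% of the 10114 rows did. Still, every value of the 9 cells was above every value of the 41 for 0 of the 39 members, which was so for 0.0791% of the 10114 rows, and 26 members (66.7%) were above TPM 1 in all 9 cells, as 27.4% of all 11879 rows were.

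The largest difference was that of Pclaf, listed in the table as 2810417H13Rik (chromosome 9, 65890237 to 65903266, plus strand), a partner of PCNA at the fork. Its level was 88.3 to 494 TPM in the 9 cells, with a median of 196 TPM, and 0 to 228 TPM in the 41, with a median of 0. It passed TPM 1 in 9 of 9 and in 4 of 41 cells, at 228 TPM in cell 4-6, 15.6 TPM in cell 3-5 and under 2 TPM in cells 2-13 and 3-9. The difference in mean log2(TPM + 1) was 7.22, and apart from cell 4-6 the values of the 2 sets of cells did not overlap.

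Cdc45 (chromosome 16, 18780447 to 18811987, minus strand), the helicase activator, followed with a difference of 5.79. It was 5.98 to 290 TPM in the 9 cells, with a median of 122 TPM, and passed TPM 1 in 4 of the 41, where cell 4-11 had 81.7 TPM. The sets of cells overlapped, since cells 2-3, 1-8, 4-10 and 3-8 of the 9 lay below cell 4-11. Rrm2 (chromosome 12, 24708241 to 24714146, plus strand), the regulated subunit of ribonucleotide reductase, was 5.63 higher. Its values were 0 to 1054 TPM in the 9 cells, with a median of 91.4 TPM and cell 2-3 at 0, and 8 of the 41 cells passed TPM 1, up to 433 TPM in cell 3-15. Its partner Rrm1 was in all 9 cells, with a median of 112 TPM and a highest value of 205 TPM, and in 21 of the 41.

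The next members by difference came from several steps of replication. Rfc5 of the clamp loader was 4.89 higher, Mcm5 4.69, Cdt1 4.63, Pold1 4.34, Mcm7 4.32, Prim1 4.27, Rrm1 4.07 and Gins2 4.04. Prim1, which makes the RNA primer, was 13.9 to 85.5 TPM in the 9 cells and passed TPM 1 in 9 of the 41, up to 59.4 TPM. Pold1 was 37.4 to 133 TPM in the 9 cells, with a median of 110 TPM, and 0 to 84.1 TPM in the 41, with a median of 0.304 TPM. Mcm5, Mcm4 and Mcm7, the MCM subunits seen in the fewest cells, were in 9 of 9 cells and in 13, 20 and 20 of the 41.

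Licensing genes differed in how far the 9 cells filled them. Cdt1 (chromosome 8, 122568015 to 122573554, plus strand) was 10.6 to 249 TPM in the 9 cells, with a median of 88.3 TPM, and passed TPM 1 in 13 of the 41, up to the 519 TPM of cell 4-2. Cdc6 (chromosome 11, 98907801 to 98923940, plus strand) was 0 to 174 TPM in the 9 cells, with a median of 6.94 TPM, and passed TPM 1 in 7 of them. Below the gap it did so in 3 of 41 cells, at 61.3 TPM in cell 4-6, 10.4 TPM in cell 2-9 and 9.74 TPM in cell 3-6. Apart from cell 1-3, Cdc6 was at most 43.3 TPM in the 9 cells, which is below its level in cell 4-6. Gins2, a subunit of the GINS complex, was 0 to 299 TPM in the 9 cells, with a median of 122 TPM, and was listed at 0 in cell 2-3. That cell, with the lowest member score of the 9, also had E2f1 and Rrm2 listed at 0 and Rfc3 at 0.35 TPM.

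Fragment joining and chromatin assembly genes lay in the middle of the order. Lig1 was 6.48 to 121 TPM in the 9 cells, with a median of 63.7 TPM, and 0 to 99.8 TPM in the 41, with a median of 2.32 TPM, a difference of 3.56 in mean log2(TPM + 1). Fen1 was 7.69 to 538 TPM in the 9 cells and 0 to 122 TPM in the 41, with medians of 77.1 and 0.388 TPM and a difference of 3.59. Chaf1b was 14.2 to 318 TPM in the 9 cells and 0 to 390 TPM in the 41, with medians of 79.6 and 0.484 TPM and a difference of 3.83. All 3 were above TPM 1 in 9 of 9 cells, and in 22, 19 and 18 of the 41, and each overlapped between the sets. Chaf1b had its highest value, 390 TPM, in cell 3-13 below the gap. Of the RPA subunits, Rpa1 was 2.91 higher and Rpa2 2.75, and Rpa2 was 105 to 415 TPM in the 9 cells with a median of 49.6 TPM in the 41. Mcm6, the MCM subunit that went most closely with the other members, was 66.9 to 236 TPM in the 9 cells, with a median of 158 TPM, and 0 to 465 TPM in the 41, with a median of 26.5 TPM.

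The 10 members above TPM 1 in at least 40 cells differed by 0.82 (Rfc3) to 2.87 (Rfc2), which is below the median of 3.05 over all members. Pcna was 226 to 1544 TPM in the 9 cells, with a median of 337 TPM, and 0 to 1383 TPM in the 41, with a median of 148 TPM, a difference of 2.05 in mean log2(TPM + 1). The sets of cells overlapped from 226 to 1383 TPM. Mcm3 was 1.23 higher, Rpa3 1.46, Tyms 1.68, Pold2 2.32 and Dctpp1 2.44. For Tyms the 9 cells had 41.7 to 144 TPM with a median of 48.7 TPM, and the 41 had 0 to 147 TPM with a median of 40.7 TPM, with 33 of the 41 above TPM 1.

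Only Rfc3 and Pole of the 39 members differed by under 1, at 0.82 and 0.63. Rfc3 was in 8 of the 9 cells and 35 of the 41, with medians of 123 and 80.5 TPM. Pole was in 5 of 9 and 10 of 41, with highest values of 18.3 and 28.2 TPM. Of the other members seen in few of the 9 cells, Ccne1, Gins1 and Ccne2 were above TPM 1 in 3 of 9 each, and in 6, 5 and 3 of the 41, so that 4 of the 9 cells and 8 of the 41 had a cyclin E gene above TPM 1. E2f1 was in 7 of 9 and 10 of 41 cells, with medians of 35.3 and 0 TPM.

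**Figure D3:**
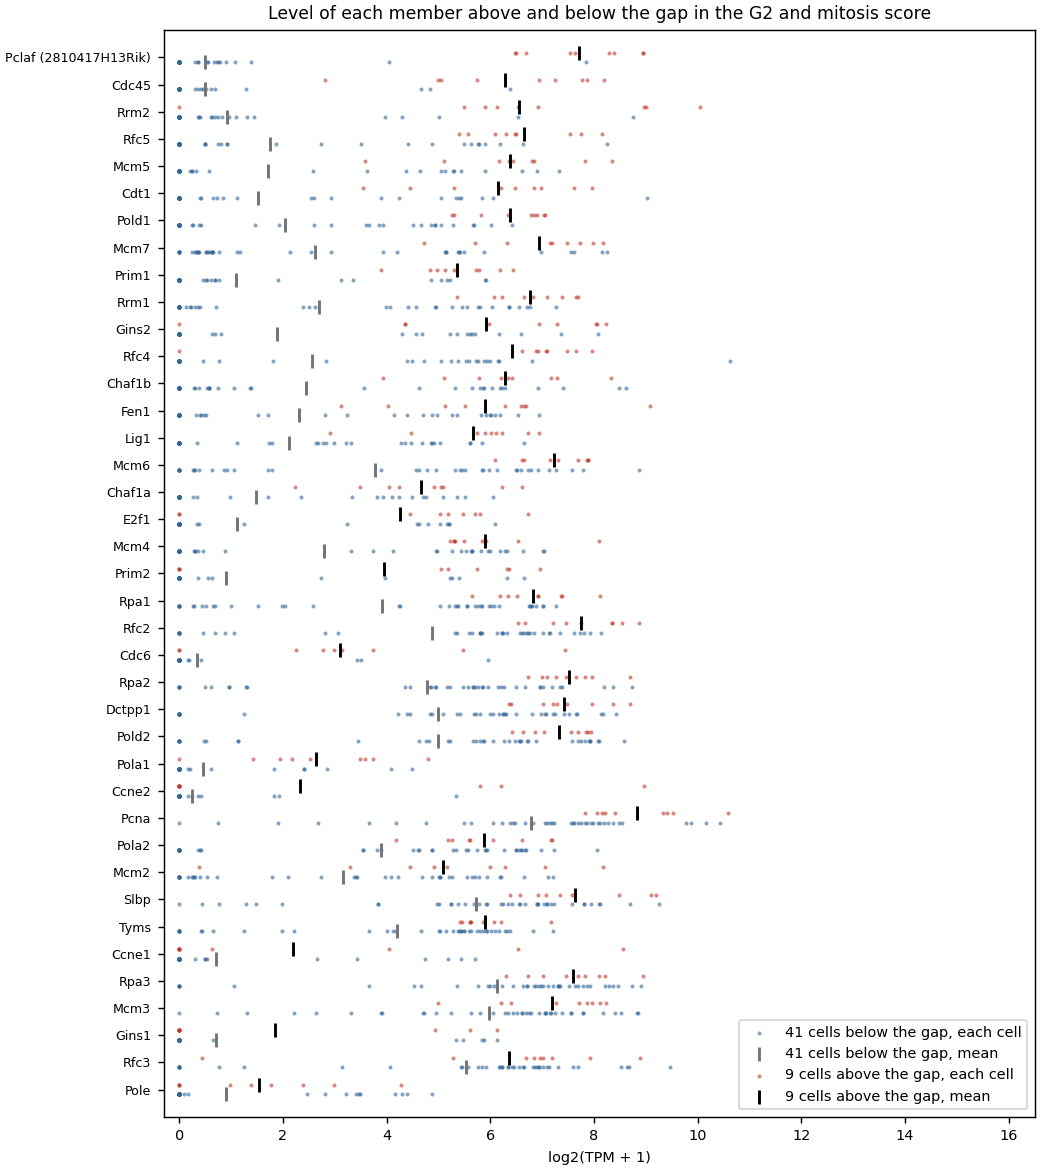
Level of each member, in log2(TPM + 1), in the 9 cells above (red) and the 41 below (blue) the gap in the G2 and mitosis score; dots are cells, black and grey ticks are the means of the 9 and the 41. Members are ordered by the difference in the mean, from 7.22 for Pclaf to 0.63 for Pole, and for every member some cells of the sets overlap.

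Within the 9 cells the members were not highest where mitotic genes were highest. Cell 1-3 had the highest member score, 7.23, with 37 members above TPM 1, and the lowest G2 and mitosis score of the 9, 4.03, with 26 of 36 listed genes above TPM 1. It held the highest values of all cells for Ccne2 (501 TPM), Ccne1 (378 TPM), Cdc6 (174 TPM) and E2f1 (105 TPM), while the licensing gene Cdt1 was 194 TPM there, below its 519 TPM in cell 4-2. It also held those of Fen1 (538 TPM), Mcm5 (325 TPM) and Mcm4 (274 TPM). Cell 1-2 was at the other end, with the highest G2 and mitosis score, 8.14, a member score of 4.86, Ccne1, Ccne2 and Cdc6 listed at 0 and Mcm2 at 0.30 TPM, while its Pclaf, 494 TPM, was the highest of all cells. Cell 3-4 had the next highest member score, 6.57, and the next lowest G2 and mitosis score, 5.33, with Pcna at 1544 TPM and Rrm2 at 499 TPM. Over the 9 cells rho between the 2 scores was -0.57 (r = -0.66), and without the 2 cells farthest from the median G2 and mitosis score it was -0.07 (r = -0.04), so that it rested on cells 1-3 and 3-4. Within the 41 cells rho was 0.30 (r = 0.26), and 0.24 (r = 0.22) without the 2 cells farthest from their median.

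Co-expression was then described by a partial rho, the rank correlation of 2 measures over the 50 cells given the number of other genes above TPM 1 in each cell, since the score went with that number. Each member was set against the score of the other 38. The median over the 39 members was 0.30, and 18 of them (46.2%) reached 0.3 or more, against 4.7% of the 10114 rows set against the full score, whose median was -0.03. Another 3, Pola2, Slbp and Cdt1, lay just under that value. Chaf1b, the CAF-1 subunit, was highest at 0.61, followed by Pcna at 0.58, Rpa1 and Rfc2 at 0.56 each, Rpa3 at 0.55, Cdc6 at 0.54, Mcm6 at 0.52 and Rrm2 at 0.51. Ccne1 was lowest at -0.04, followed by Gins1 at 0.01, Rfc4 at 0.05, Ccne2 at 0.08, Pole and Prim2 at 0.09 each and Fen1 at 0.13. The 3 RPA subunits reached 0.3 or more, as did 3 of the 4 genes of nucleotide supply and 4 of the 6 of the clamp and clamp loader, but only 2 of the 6 MCM subunits (Mcm6 and Mcm4) and 0 of the 3 regulators E2f1, Ccne1 and Ccne2.

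Much of this went with the 9 cells. Among the 41 cells below the gap 35 members were above TPM 1 in at least 10% of the cells, their median partial rho was 0.15 and 9 of the 35 (25.7%) reached 0.3 or more, against 4.71% of 9683 rows with a median of -0.03. The 9 were Rpa3 (0.57), Chaf1b (0.49), Rfc2 (0.46), Pcna (0.46), Rpa1 (0.44), Mcm6 (0.34), Gins2 (0.33), Mcm4 (0.32) and Lig1 (0.31). Lower values in these cells were those of Rfc4 (-0.25), Ccne1 (-0.22) and Fen1 (-0.17). Cdc45, Pclaf, Cdc6 and Ccne2 were in too few of the 41 cells for a value.

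**Figure D4:**
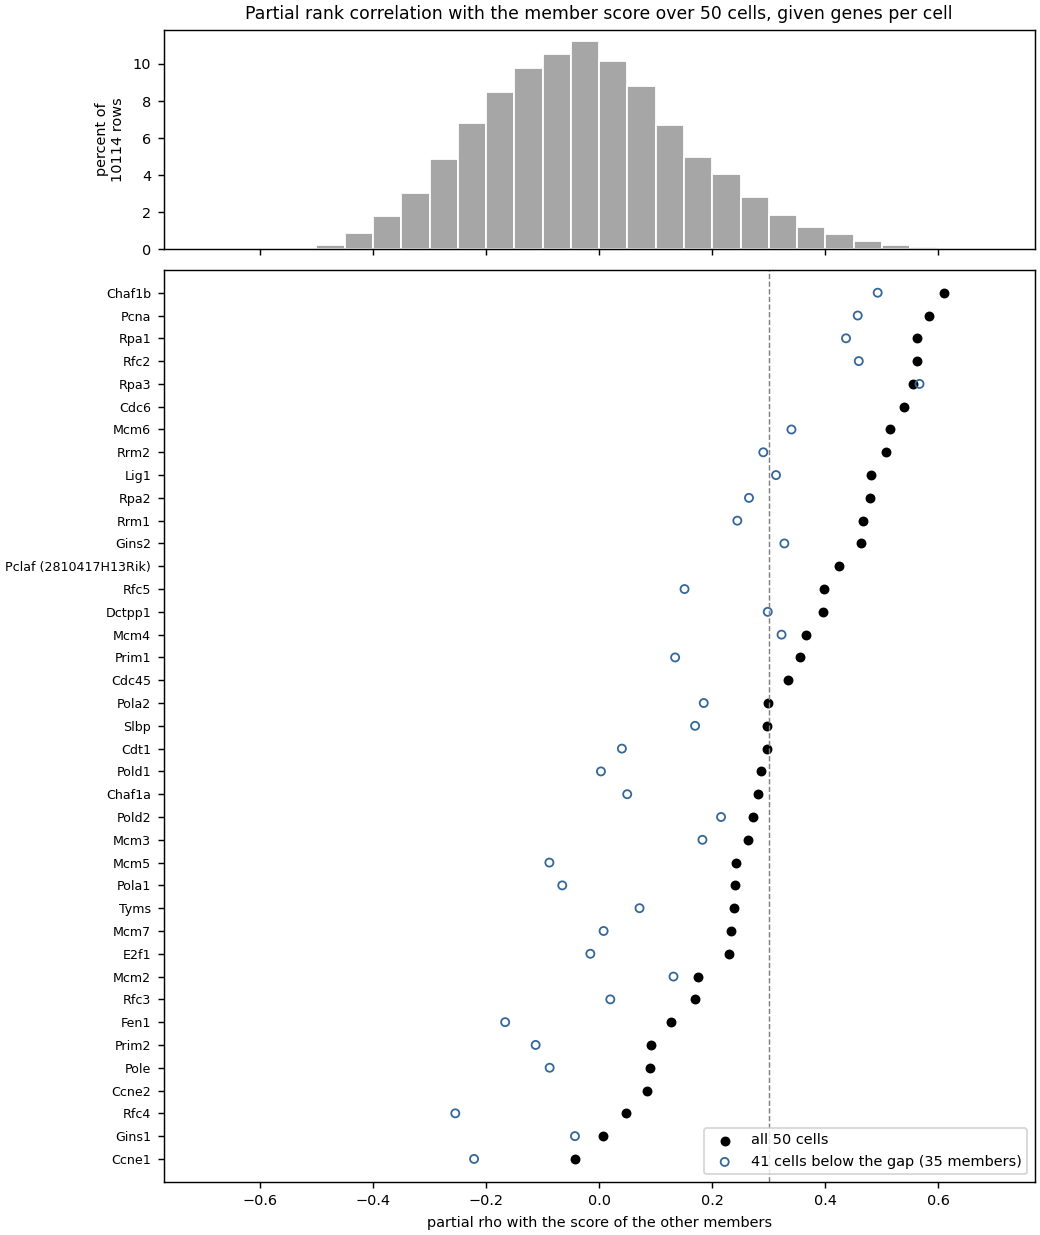
Below, the partial rho of each member with the score of the other members given genes per cell, over all 50 cells (black) and over the 41 cells below the gap (open blue, 35 members); the dashed line is at 0.3. Above, the percent of the 10114 rows at each partial rho with the full score, with a median of -0.03, while 18 of 39 black points lie at or beyond the line.

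Pair by pair the module was loosely tied. Over the 741 pairs of members the median rho was 0.26 and the median partial rho 0.18, with 160 pairs (21.6%) at a partial rho of 0.3 or more and 100 below 0. Over all pairs of the 10114 rows the median partial rho was 0.0052 and 2.53% reached 0.3. The highest pairs were Lig1 with Chaf1a (0.58), Cdc6 with Gins2 (0.57), Lig1 with Chaf1b (0.55), Rfc5 with Rpa2 (0.54) and Cdc45 with Prim1 (0.53), and the lowest was Mcm3 with Rfc3 (-0.26). Pairs within a role had a median of 0.22 (59 pairs) and pairs across roles 0.18 (682 pairs). For the 15 pairs of MCM subunits the median was 0.25, and 6.67% of them, 1 pair, reached 0.3. Within the 41 cells the median partial rho over 595 member pairs was 0.04, with 5.21% at 0.3 or more, against 0.0057 and 3.78% over all pairs of rows.

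**Figure D5:**
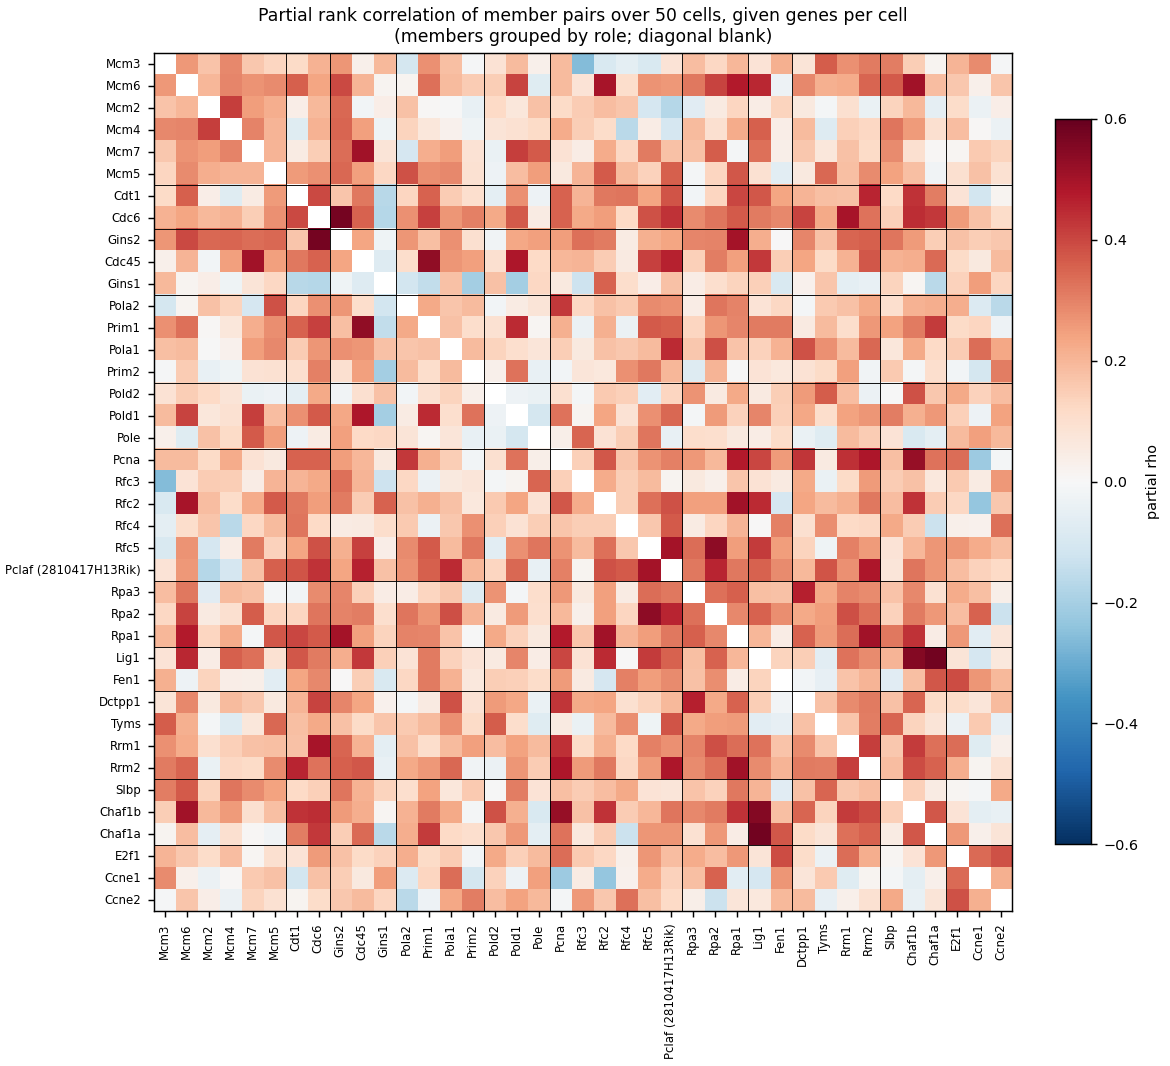
Partial rho of each pair of the 39 members over the 50 cells, given genes per cell, with members grouped by role and lines between roles; red is positive, blue negative and the diagonal is blank. The values run from -0.26 (Mcm3 with Rfc3) to 0.58 (Lig1 with Chaf1a), with a median of 0.18.

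Other genes of replication had values near those of the members. Of 47 further replication genes with a row, 46 passed the filter of 10% of cells, with a median partial rho with the member score of 0.25. Of the 46, 18 reached 0.3 or more, against 4.7% of all 10114 rows, and 0 reached -0.3 or less, against 610 of those rows. The highest were Dna2, a nuclease of Okazaki fragments (0.52), Dut, which breaks down dUTP (0.51), and the histone chaperone Nasp (0.46), and the lowest were Pold4 (-0.16), Gins4 (-0.10) and Orc3 (-0.09). Breadth ran from Recql4 in 1 cell to Rbbp7 in 50. Of the 39 that passed the filter in the 41 cells alone, 30 were at least 1 unit of log2(TPM + 1) higher in the 9 cells, with a median difference of 1.74, against 24.9% and 0.42 over all rows under that filter. Within the 41 cells their median partial rho was 0.12, and 5 of 39 reached 0.3, against 4.71% of all rows there.

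For genes that control S-phase entry the median value was lower. Of 25 G1/S control genes with a row 22 passed in at least 10% of cells, with a median partial rho of 0.03. Among the 22, 4 reached 0.3 or more, against 4.7% of all 10114 rows. The 4 were the E2F partner Tfdp1 (0.46), E2f6 (0.40), E2f2 (0.33) and Cdk4 (0.31), and the lowest were the kinase inhibitor p27, Cdkn1b (-0.33), Rb1 (-0.17) and Cdkn2d (-0.15). Ccnd3, Cdk4 and the p21 gene Cdkn1a were in 50 of 50 cells, at medians of 1007, 963 and 780 TPM, while Cdkn1c was in 1 cell. Of the 21 that passed the filter in the 41 cells alone, 11 were at least 1 unit higher in the 9 cells, against 24.9% of all rows under that filter. Cdkn2d was among them, with 9 of 9 and 33 of 41 cells above TPM 1. Given genes per cell, its r with the score was 0.02 over the 50 cells and -0.28 within the 41, where its partial rho was -0.31. Within the 41 cells the partial rho of Cdkn1b was -0.51, and its level was above TPM 1 in 36 of these cells and in 7 of the 9.

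Of the 14 genes of the S-phase checkpoint and repair, 13 passed in at least 10% of cells, with a median partial rho of 0.31. Among the 13, 7 were at 0.3 or more, against 4.7% of all 10114 rows. Exo1, a nuclease of mismatch repair, was among the highest at 0.47, and Blm (-0.04) and the checkpoint kinase gene Atr (0.13) were among the lowest. Brca1 was in 4 cells. Of the 8 genes that passed the filter in the 41 cells alone, 6 were at least 1 unit higher in the 9 cells, against 24.9% of all rows under that filter. Within the 41 cells 0 of 8 reached 0.3, against 4.71% of all rows there.

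For the 36 genes of G2 and mitosis the median partial rho was 0.32 over all cells, with 19 at 0.3 or more, against -0.03 and 4.7% of the 10114 rows. Within the 41 cells their median was -0.03 and 1 of 24 reached 0.3, which is near the -0.03 and 4.71% of all rows there. Cdk1, which drives entry into mitosis, was highest at 0.57, followed by the S and G2 cyclin Ccna2 at 0.42 and Birc5 at 0.41, and Ckap2 (0.07), Bub1b (0.08) and Cdc20 (0.09) were lowest. Breadth ran from Kif11 in 7 cells to Cks2 in 48. The partial rho between the member score and the score of this list was 0.39 over the 50 cells (r = 0.71), which fall into the separate sets described above, and without cell 4-6 it was 0.29. Within the first title numbers it was -0.13, 0.41, 0.34 and 0.49 in turn, and -0.20, 0.15, 0.097 and 0.066 without the 2 cells of each that lay farthest from its median. Within the 41 cells it was 0.16 (r = 0.25), and without the 2 of them farthest from their median it was -0.03 (r = 0.03).

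Marker lists of cell type went weakly with the score or in the opposite direction. The 6 endothelial genes had a median partial rho of -0.27, against -0.03 over the 10114 rows. Of the 6, 3 were at -0.3 or less, against 610 of those rows, namely Cdh5 (-0.43), Esam (-0.39) and Pecam1 (-0.37). The summed level of the 6 was 756 to 1758 TPM in the 9 cells and 478 to 4359 TPM in the 41. The 7 hemogenic genes had a median of -0.16, with 0 beyond 0.3 in either direction, and a summed level of 411 to 1490 TPM in the 9 cells and 90.7 to 1506 TPM in the 41. Of the 4 mature blood genes 2 could be set against the score, at 0.17 (Laptm5) and -0.39 (Coro1a), with a summed level of 34.9 to 658 TPM in the 9 cells and 0.628 to 1846 TPM in the 41. The erythroid and mesenchymal genes were in too few cells for a value, with summed levels of at most 1056 and 9.15 TPM in a cell. The part of these levels in the member score was not tested.

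Outside the members and these lists, 8951 rows above TPM 1 in at least 20% of cells were ranked by partial rho with the member score. The 10 highest were Hn1l (0.61), Rbm3 (0.59), Rpgrip1 (0.59), Banf1 (0.58), the spindle checkpoint gene Mad2l1 (0.58), the histone gene Hist1h4d (0.57), the nuclear transport GTPase Ran (0.56), Pmf1 (0.56), the histone variant gene H2afz (0.56) and the centromere gene Cenpi (0.56). Banf1, Rbm3, Ran and H2afz were in 50 of 50 cells, and H2afz had a median of 1124 TPM. Of the 10, 9 had a value within the 41 cells, and these lay between 0.38 (Pmf1) and 0.60 (Hn1l). The 10 lowest were Cdk13 (-0.57), Larp1 (-0.57), Ccnl2 (-0.56), the laminin gene Lamb1 (-0.56), Peg10 (-0.54), Cd47 (-0.54), Etv3 (-0.53), Shc1 (-0.53), the cathepsin gene Ctsl (-0.53) and Dnajc13 (-0.51), and their values within the 41 cells lay between -0.63 (Ctsl) and -0.42 (Shc1).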

How the data were processed

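Single-cell RNA-seq libraries of 50 iRunx1-iHECs were analysed. The authors amplified cDNA with Discover-sc WTA Kit V2, and per the submitters' processing notes HISAT2 2.1.0, SAMtools 0.1.19, StringTie 1.3.4 and mm10 were used. The annotation behind the table and the rule by which its rows were selected are not given in the sources used here, and the study's texts name different sequencers. The deposited values are TPM per gene and cell, estimated by the authors. TPM keeps no depth, so no interval on a level and no thinning to a common depth was possible. The columns summed to between 942975 and 970894 TPM.

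A gene counted as expressed at TPM above 1. Levels were taken as log2(TPM + 1), shares of cells with exact Clopper-Pearson 95% intervals. Partial rho was the rank correlation given the number of nonmember genes above TPM 1, for rows that passed TPM 1 in 10% of cells or more. The score of a member left that member out, and other rows were set against the full score. Python 3.11.15, pandas 2.3.3, NumPy 2.4.6 and SciPy 1.17.1 were used, and the partial rho was tested on simulated data. Those data were drawn from normal distributions, without the many zeros or the separate sets of cells seen here. They therefore do not show how the measure behaves on these rows. No test over replicates was made. Doublets were not called, and all cells were kept. Gene positions came from GENCODE M21 (GRCm38, the assembly of mm10) and promoter windows from RefSeq on GRCm38.p6.

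Members and gene lists were chosen with earlier results of these data known. All members are named, and of each other list (further replication, G1/S control, S-phase checkpoint and repair, G2 and mitosis) the 3 highest and 3 lowest by partial rho and the lowest and highest breadth. Some genes of the checkpoint and repair list are not reported here by name, although the counts and medians include them. Outside them the 10 highest and 10 lowest by partial rho among rows in at least 20% of cells are named. The marker genes, Cdk4 and other singled-out genes, cells and pairs were chosen after their values were seen, as were the split of cells by the G2 and mitosis score and the filter within the 41 cells below its gap. Alternatives were levels of TPM 0, 5 and 10, a pseudocount of 0.1, Pearson's r, members in at least 50% of cells, cells or title numbers left out and rescaling without 81 ribosomal protein rows.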

Additional observations from a re-analysis of the deposited data

How the results depend on the processing

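Depth is unknown, replicates were not given and the cells are 1 sample, so these values describe 50 libraries. No paired analysis was possible because all cells belong to 1 group. Of 113 values recomputed under alternatives, 14 moved by more than the SD of the value over the 4 first title numbers or, for the count of members higher in the 9 cells, by over 1.5 times. The median number of members per cell, 20 at TPM 1, was 23 at TPM above 0, 18 above 5 and 17.5 above 10, and it was 18 without first title number 3 and also 18 when the 9 cells above the gap were left out. With each first title number left out it lay between 18 and 20. The median member score, 2.89, was 1.34 with a pseudocount of 0.1 and 4.47 over members in at least 50% of cells. Its SD over cells, 1.43, was 2.01 with a pseudocount of 0.1 and 0.77 without the 9 cells. Without the 9 cells, an alternative chosen after seeing the data, the median rho of member pairs was 0.054 and the median partial rho of a member with the others was 0.15. The latter, 0.30 over all cells, was 0.45 by Pearson's r and 0.41 without the 7 cells under 5000 genes. The partial correlation of the member score with the G2 and mitosis score, 0.39, was 0.71 by Pearson's r. Leaving out each of the 9 cells in turn left 35 to 38 members at least 1 unit of log2(TPM + 1) higher in the remaining ones, against 37.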

Other observations

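Histone genes, whose replication-dependent copies are transcribed in S phase, had 58 rows with a Hist symbol. Of the 17 that passed TPM 1 in at least 10% of the 41 cells below the gap in the G2 and mitosis score, 14 were at least 1 unit of log2(TPM + 1) higher on average in the 9 cells above it and 2 were as much lower, against 24.9% and 2.33% of the 9683 rows under the same filter, with a median difference of 3.73. Hist1h2ap had the largest difference, 5.46, with medians of 1267 TPM in the 9 cells and 17.8 TPM in the 41. Hist1h2ag was 4.92 higher, with a median of 364 TPM in the 9 cells. Both passed TPM 1 in all 9 cells and in 33 and 31 of the 41. The 2 lower rows were Hist2h2aa2, above TPM 1 in 3 of 9 and 24 of 41 cells (-1.46), and Hist3h2a, in 3 of 9 and 20 of 41 (-1.34). Hist1h4a and Hist1h4c were above TPM 1 in 2 and 4 cells and reached 3413 and 8492 TPM there. Several of these genes are near-identical copies that share reads, and most of their mRNAs lack a poly(A) tail while the labels give polyA RNA, so the values per row are uncertain.

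The induced factor and the cell-cycle inhibitors were set beside the member score as well. Given genes per cell, Runx1 had a rho of 0.07 with the member score over the 50 cells (r = -0.03), 0.06 within the 41 and -0.61 within the 9. Its median level was 294 TPM in the 9 cells and 94.0 TPM in the 41, a difference of 1.17 in mean log2(TPM + 1). Gata2, another hemogenic gene, was 2.14 higher, with medians of 53.5 and 12.7 TPM, and its rho with the score, given genes per cell, was 0.08 over the 50 cells. They were the 2 of the 7 hemogenic genes with a difference of 1 or more, a share near the 25.5% of all 10114 rows. The median over the 7 was 0.30, against 0.44 over those rows, and Kit (-0.54), Gfi1 (-0.16) and Procr (-0.05) lay below 0. Cdkn1a had -0.06 over the 50 and -0.27 within the 41, and Mycn had 0.0022 and -0.02. Cdkn1b had -0.33 over the 50 cells (r = -0.29) and -0.51 within the 41 (r = -0.58). Cdh5, an endothelial junction gene, had -0.43 over the 50 cells (r = -0.46), -0.33 within the 41 and 0.02 within the 9.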
